A study of Mus musculus with 6 samples.

Results

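The YAP pathway was described through 8 genes: the coactivators Yap1 and Wwtr1 (the gene of TAZ), their DNA-binding partner Tead1, the inhibitory kinase Lats2, the junction protein Amotl2, and the target genes Ccn1 (formerly Cyr61), Ccn2 (formerly Ctgf) and Axl. The 8 genes were listed by symbol and found in the count table through their Ensembl identifiers; all 8 had a row among the 12027 genes of the table. Whole liver mRNA was sequenced after partial hepatectomy (PHX), in which several lobes are cut away and the rest regrows, in male C57BL/6 mice aged 8 weeks. Each of the 6 groups was 1 library made from the RNA of 3 mice pooled in equal amounts. The OGT-KO group (genotype OGT-/y) and its OGT control (OGTfl/y) were taken at 28 days after surgery. The OGA-KO groups (OGA-/-) and their OGA controls (OGAfl/fl) were taken at 14 and at 28 days. Every group had undergone PHX, so no library shows unoperated liver. The knockouts are described as specific to hepatocytes, and the means of deletion is not given in the sources used here. OGT adds, and OGA takes off, O-GlcNAc, a single-sugar mark on nuclear and cytoplasmic proteins.

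YAP and TAZ are closely related proteins without a DNA-binding domain of their own, which act in the nucleus by binding TEAD factors. In the Hippo pathway the kinases MST1 and MST2 activate LATS1 and LATS2, which phosphorylate YAP and TAZ and so keep them in the cytoplasm. In liver the pathway is known for restraining organ size. Several target genes, among them Lats2 and Amotl2, encode inhibitors of YAP, which closes a feedback loop. YAP activity is set largely by phosphorylation and location, which mRNA levels do not measure.

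TEAD factors bind the hexamer CATTCC, read GGAATG on the other strand. The promoters below, from RefSeq on build GRCm38.p6, are shown because this hexamer was found in the 250 bases before a RefSeq start site in 5 of the 6 genes of the group with a promoter sequence (Ccn1, Axl, Amotl2, Yap1, Wwtr1 and, without the hexamer, Lats2). The hexamer, on either strand, was found in 14.4% of all 27025 genes with a promoter of the same length. For Ccn2 and Tead1 no promoter sequence was in the table used, so they were not searched. Each line runs 5′ to 3′ on the strand of the gene, with the hexamer in capitals.
Ccn1, chr3:145650056-145650115, minus strand: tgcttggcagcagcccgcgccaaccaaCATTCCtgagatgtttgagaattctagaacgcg
Amotl2, chr9:102717712-102717771, plus strand: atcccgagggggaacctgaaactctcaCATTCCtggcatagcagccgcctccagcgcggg
Yap1, chr9:8004705-8004764, minus strand: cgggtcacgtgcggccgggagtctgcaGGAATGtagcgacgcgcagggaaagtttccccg
Wwtr1, chr3:57576014-57576073, minus strand: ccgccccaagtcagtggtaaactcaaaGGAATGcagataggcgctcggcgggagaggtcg
Axl, chr7:25788934-25788983, minus strand: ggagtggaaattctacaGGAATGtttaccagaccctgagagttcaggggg
The first base of the hexamer lay 103 bases before the start of Ccn1, 65 before that of Amotl2, 141 before that of Yap1 and 233 before that of Axl. Wwtr1 had 2 start sites, and the same hexamer lay 136 and 170 bases before them. Read as CATTCC on whichever strand carries it, the hexamer was followed by TG in Ccn1, Amotl2, Yap1 and Axl, and by TT in Wwtr1. The CArG box, the binding sequence of serum response factor (SRF), was found in the same window in 0 of the 6 genes and in 1.62% of all genes. A match of letters is a description of the sequence and shows no binding.

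The libraries held 20433100 to 29327722 counts. Levels are given as CPM, counts scaled to a common library size by TMM, a correction for composition, and each log2 ratio is followed by its 95% interval for counting error alone. The labels name no molecular identifiers, so reads may be copies of one molecule and these intervals cover counting error alone. Each group was 1 library, so there was no spread between replicates to compare a difference with. Oga had 10.4 CPM in OGA-KO and 62.2 CPM in OGA control at 14 days, and 12.8 CPM in OGA-KO and 67.2 CPM in OGA control at 28 days. Ogt had 43.2 CPM in OGT-KO and 58.0 CPM in OGT control, but reads outside a deleted stretch would remain, so this does not check the OGT-KO label. By library totals the OGT-KO ratios of all genes were centred higher by 0.37 on the log2 scale than by TMM.

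In the OGT-KO liver at 28 days, target genes of YAP and the TEAD factor were higher than in OGT control, while Yap1 itself was not. Ccn2 was 14.8-fold, Axl 4.58-fold, Tead1 3.44-fold and Ccn1 2.07-fold higher. Amotl2 was 1.90-fold, Wwtr1 1.79-fold and Lats2 1.39-fold higher. Of the 8 genes, 4 were at least 2-fold higher and 0 at least 2-fold lower, against 16.4% higher and 11.7% lower of the 11803 genes that reached 1 CPM in this pair. Their median log2 ratio was 0.99, against 0.00 over all those genes. By library totals 6 of the 8 were at least 2-fold higher, and the split of all 2-fold genes moved from 58.3% to 77.3% higher.

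An edgeR quasi-likelihood fit of all 6 libraries, with terms for line, day and both knockouts, gave 1 residual degree of freedom. Its spread came from the OGA libraries, and for the OGT pair, with nothing to measure it by, the same spread was taken. By this test (Benjamini-Hochberg adjusted p under 0.05 over 12027 genes) 6 of the 8 genes rose in OGT-KO and 0 fell, where 26.1% of all genes rose and 26.6% fell. The DESeq2 Wald test called 4 of the 8, against 24.0% of all genes in either direction. Each OGT-KO value rests on 1 pair of libraries.

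**Figure D1:**
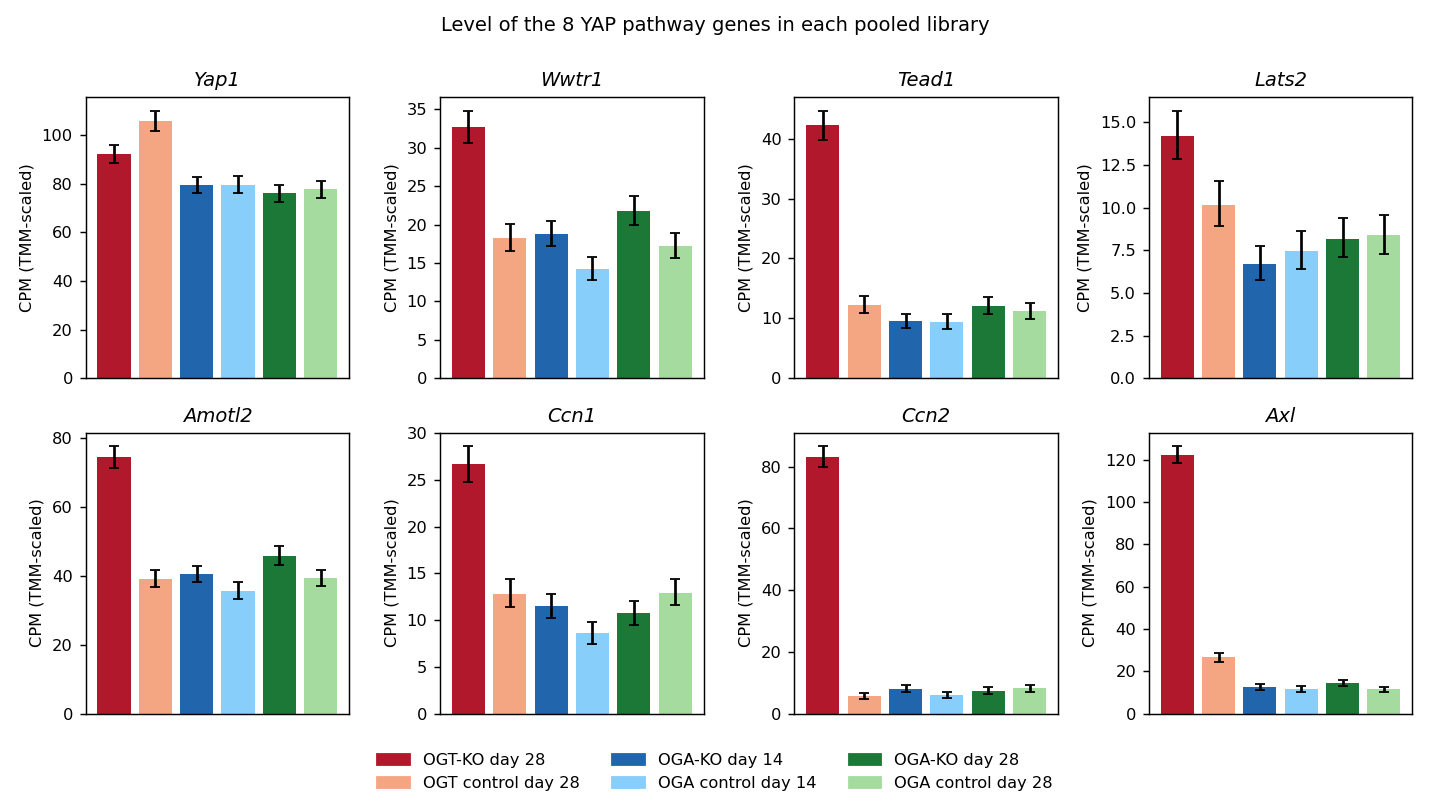
Level of each of the 8 genes in CPM (TMM-scaled, linear axis from 0) in the 6 pooled libraries; bars are single libraries and error bars are exact 95% Poisson intervals for counting error alone. The OGT-KO bar is the highest in every panel except that of Yap1, where OGT control is highest at 106 CPM.

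Yap1, the coactivator that gives the pathway its name, had 92.0 CPM in OGT-KO and 106 CPM in OGT control (2569 and 2441 counts). In OGA-KO it had 79.5 CPM at 14 days and 76.0 CPM at 28 days, against 79.5 and 77.6 CPM in the OGA controls of those days. The 4 OGA libraries lay within a 1.05-fold range, and both OGT libraries lay above all of them. The OGT-KO ratio of Yap1 was -0.20 (-0.28 to -0.12), its edgeR adjusted p was 0.129, and by library totals the ratio was 0.17, so that even its sign depended on the scaling. The ratio of OGT control to OGA control at 28 days was 0.45 (0.36 to 0.53), larger than the difference within either knockout line.

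Wwtr1 had 32.7 CPM in OGT-KO and 18.2 CPM in OGT control (912 and 421 counts). The OGA-KO livers had 18.8 CPM at 14 days and 21.8 CPM at 28 days, against 14.2 and 17.3 CPM in OGA control. The knockout library of each pair was thus the higher. The OGT-KO ratio was 0.84 (0.67 to 1.01) and Wwtr1 rose by edgeR (adjusted p = 0.00388), a call that the DESeq2 Wald test did not make (adjusted p = 0.107). The OGA-KO ratios were 0.40 (0.20 to 0.61) at 14 days and 0.33 (0.15 to 0.52) at 28 days, and the effect over both days did not pass edgeR (log2 0.37, adjusted p = 0.284). The OGA control of 28 days stood above that of 14 days by a similar 0.28 (0.08 to 0.49).

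Among the transcripts of both coactivators, the share from Wwtr1 does not depend on any scaling of the libraries. It was 26.2% of their counts in OGT-KO (24.7% to 27.7%, exact Clopper-Pearson interval) and 14.7% in OGT control (13.4% to 16.1%). In OGA-KO it was 19.1% at 14 days and 22.3% at 28 days, against 15.2% and 18.2% in OGA control. The counting intervals of knockout and control did not overlap in any of the 3 pairs. The intervals of the OGA controls of 14 days (13.7% to 16.7%) and 28 days (16.7% to 19.8%) bordered on each other.

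Tead1, which carries YAP and TAZ to DNA, had 42.2 CPM in OGT-KO and 12.2 CPM in OGT control (1179 and 282 counts). Its OGA-KO levels were 9.51 CPM at 14 days and 12.1 CPM at 28 days, against 9.39 and 11.2 CPM in OGA control. OGT-KO stood 3.46-fold above the highest of the other 5 libraries. The OGT-KO ratio was 1.78 (1.60 to 1.98), and Tead1 rose by edgeR (adjusted p = 0.000507). The OGA-KO ratios were 0.02 (-0.24 to 0.28) and 0.11 (-0.13 to 0.34) at 14 and 28 days.

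Of the 9 listed TEAD factors and cofactors, 6 had a row, of which 3 rose and 0 fell in OGT-KO by edgeR. They were Wwtr1, Tead1 and Tead2, another TEAD factor, at 7.16 CPM in OGT-KO and 1.26 CPM in OGT control (log2 2.44). Tead3, from the same family, did not pass (10.8 CPM in OGT-KO and 11.7 CPM in OGT control), nor did Vgll4, a cofactor that competes with YAP for TEAD (19.1 CPM in OGT-KO and 22.0 CPM in OGT control). The share of Tead1 in OGT-KO was higher when set against Tead3 and not when set against Tead2. Tead1 made up 79.7% of the counts of Tead1 and Tead3 together in OGT-KO (77.5% to 81.7%), against 51.2% in OGT control (46.9% to 55.4%) and 32.5% to 39.2% in the 4 OGA libraries. Of the counts of Tead1 and Tead2 together it made up 85.5% in OGT-KO (83.5% to 87.3%) and 90.7% in OGT control (86.9% to 93.7%), whose intervals overlap.

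Lats2, the kinase that phosphorylates YAP and TAZ, had 14.2 CPM in OGT-KO and 10.2 CPM in OGT control (397 and 235 counts). In OGA-KO livers it stood at 6.70 CPM at 14 days and 8.17 CPM at 28 days, against 7.47 and 8.37 CPM in OGA control. The OGT-KO ratio was 0.48 (0.25 to 0.72), with an edgeR adjusted p of 0.0524 by TMM and 0.00767 by library totals. Lats1, its paralogue, had 46.6 CPM in OGT-KO and 60.0 CPM in OGT control and fell by edgeR (log2 -0.37, adjusted p = 0.0265). The fall of Lats1 was as large as the 0.37 by which library totals centred all OGT-KO ratios higher, so it depended on the scaling. Both OGT libraries also stood above the OGA libraries, which had 32.1 to 35.4 CPM of Lats1. Lats2 made up 23.4% of the counts of both kinases in OGT-KO (21.4% to 25.5%), against 14.5% in OGT control (12.8% to 16.3%). In the OGA libraries the share was 17.1% in OGA-KO and 17.4% in OGA control at 14 days, and 20.3% in OGA-KO and 19.9% in OGA control at 28 days.

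Amotl2, a junction protein that binds YAP and holds it outside the nucleus, had 74.4 CPM in OGT-KO and 39.1 CPM in OGT control (2077 and 903 counts). In OGA-KO it had 40.5 CPM at 14 days and 45.8 CPM at 28 days, against 35.6 and 39.3 CPM in OGA control. The 3 controls lay within a 1.11-fold range, and each knockout library stood above its control. Amotl2 rose in OGT-KO by edgeR (ratio 0.93, 0.81 to 1.04, adjusted p = 0.00116). The OGA-KO ratios were 0.18 (0.05 to 0.31) and 0.22 (0.10 to 0.34), and the effect over both days did not pass edgeR (adjusted p = 0.337). Amotl1, its paralogue, was more strongly higher in OGT-KO, at 34.9 CPM against 9.79 CPM in OGT control (log2 1.82). The share of Amotl2 in the counts of both was therefore 68.1% in OGT-KO (66.4% to 69.8%), against 80.0% in OGT control (77.5% to 82.3%) and 77.6% to 80.5% in the OGA libraries.

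The 22 Hippo kinases and regulators, which include Lats2 and Amotl2, all had a row. In OGT-KO 9 rose and 2 fell by edgeR, against 26.1% and 26.6% of all genes, with a median log2 ratio of 0.39. Map4k4, a kinase that acts on LATS, had 63.8 CPM in OGT-KO and 10.4 CPM in OGT control (log2 2.61). Ptpn14, a phosphatase that binds YAP, was at 17.8 against 4.81 CPM (1.87), and Frmd6, a cortical scaffold of the pathway, at 13.1 against 5.33 CPM (1.29). The core of the pathway was mixed. Sav1, the scaffold of the MST kinases, rose, at 22.4 CPM in OGT-KO and 13.2 CPM in OGT control (0.76, adjusted p = 0.00704 by edgeR). Stk3 and Stk4, the genes of MST2 and MST1, had log2 ratios of 0.02 and 0.17, Nf2 had -0.03 and Mob1a 0.04, and these 4 did not pass. The genes that fell were Lats1 and Mob1b (-0.49), an activator of the LATS kinases. Both were called with TMM scaling, and library totals centred all OGT-KO ratios higher by 0.37.

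**Figure D2:**
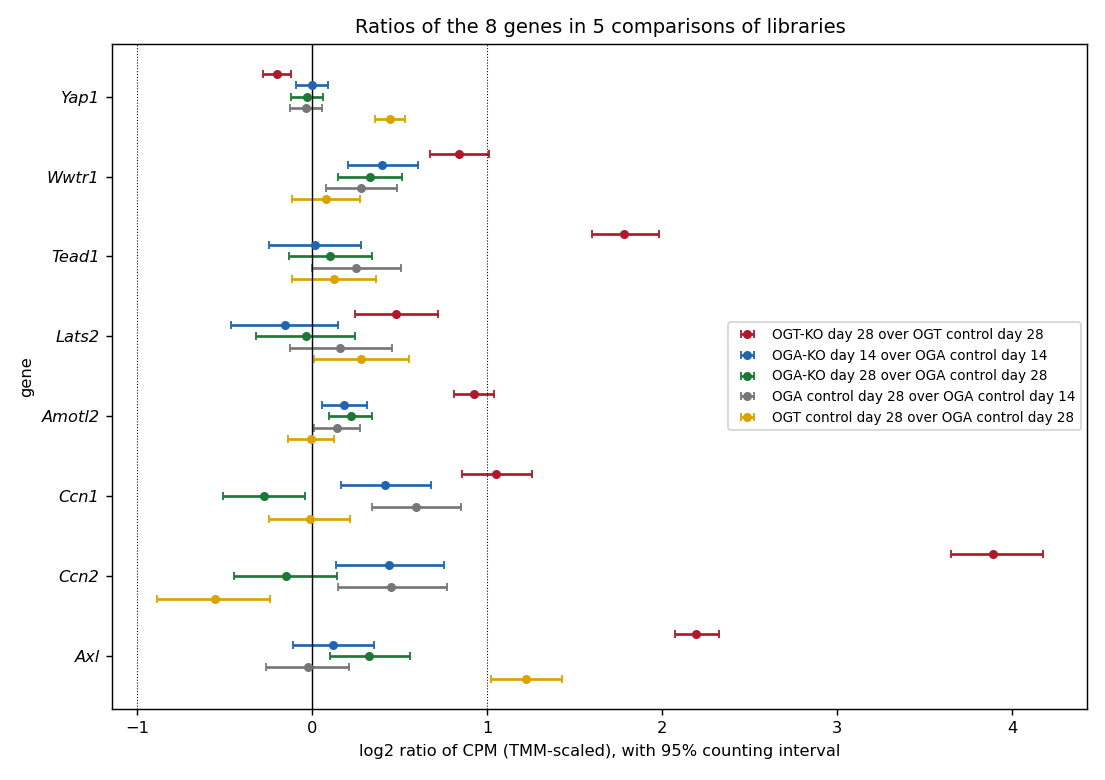
Log2 ratio of CPM (TMM-scaled) of the 8 genes in 5 comparisons of 2 libraries each, with 95% counting intervals; dotted lines mark 2-fold. The OGT-KO ratios (red) lie right of all others for every gene except Yap1, and reach 3.89 for Ccn2.

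Ccn2 and Ccn1 encode secreted proteins of the extracellular matrix and are the most used readouts of YAP activity; both also respond to TGF-beta and to SRF. Ccn2 had 83.3 CPM in OGT-KO and 5.55 CPM in OGT control (2325 and 128 counts). Its level in OGA-KO was 8.10 CPM at 14 days and 7.36 CPM at 28 days, against 5.96 and 8.18 CPM in OGA control. The 5 libraries other than OGT-KO spanned 5.55 to 8.18 CPM, and OGT-KO stood 10.2-fold above the highest of them. Ccn2 rose by edgeR (ratio 3.89, 3.65 to 4.18, adjusted p = 0.000241). Of the 11803 genes with at least 1 CPM, 55 had an OGT-KO ratio at or above that of Ccn2, which counts Ccn2 itself.

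Ccn1 had 26.7 CPM in OGT-KO and 12.8 CPM in OGT control (744 and 296 counts). In OGA-KO livers it reached 11.5 CPM at 14 days and 10.7 CPM at 28 days, against 8.57 and 13.0 CPM in OGA control. OGT-KO was the highest library, and the other 5 overlapped between knockout and control. Ccn1 rose in OGT-KO by edgeR (ratio 1.05, 0.86 to 1.25, adjusted p = 0.017), but not by the DESeq2 Wald test (adjusted p = 0.104). At or above this ratio stood 15.6% of all genes.

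In the OGA line Ccn1 and Ccn2 differed between the controls of both days by at least as much as within a pair. The OGA-KO ratio of Ccn1 was 0.42 (0.16 to 0.68) at 14 days and -0.27 (-0.51 to -0.04) at 28 days. That of Ccn2 was 0.44 (0.14 to 0.76) and -0.15 (-0.44 to 0.14). Between the OGA controls, the library of 28 days stood above that of 14 days by 0.59 (0.34 to 0.85) for Ccn1 and 0.45 (0.15 to 0.77) for Ccn2. The lowest OGA library for both genes was the control of 14 days, and the highest was the control of 28 days.

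The share of Ccn2 in the counts of Ccn1 and Ccn2 separated OGT-KO from the other libraries without any scaling. It was 75.8% in OGT-KO (74.2% to 77.3%) and 30.2% in OGT control (25.9% to 34.8%). In the 4 OGA libraries it lay between 38.7% and 41.4%, with overlapping intervals. Of the 6 genes of the CCN family 3 had a row, and all 3 rose in OGT-KO by edgeR, where 26.1% of all genes rose. Besides Ccn1 and Ccn2 this was Ccn4, at 5.34 CPM in OGT-KO against 2.12 CPM in OGT control (log2 1.30).

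**Figure D3:**
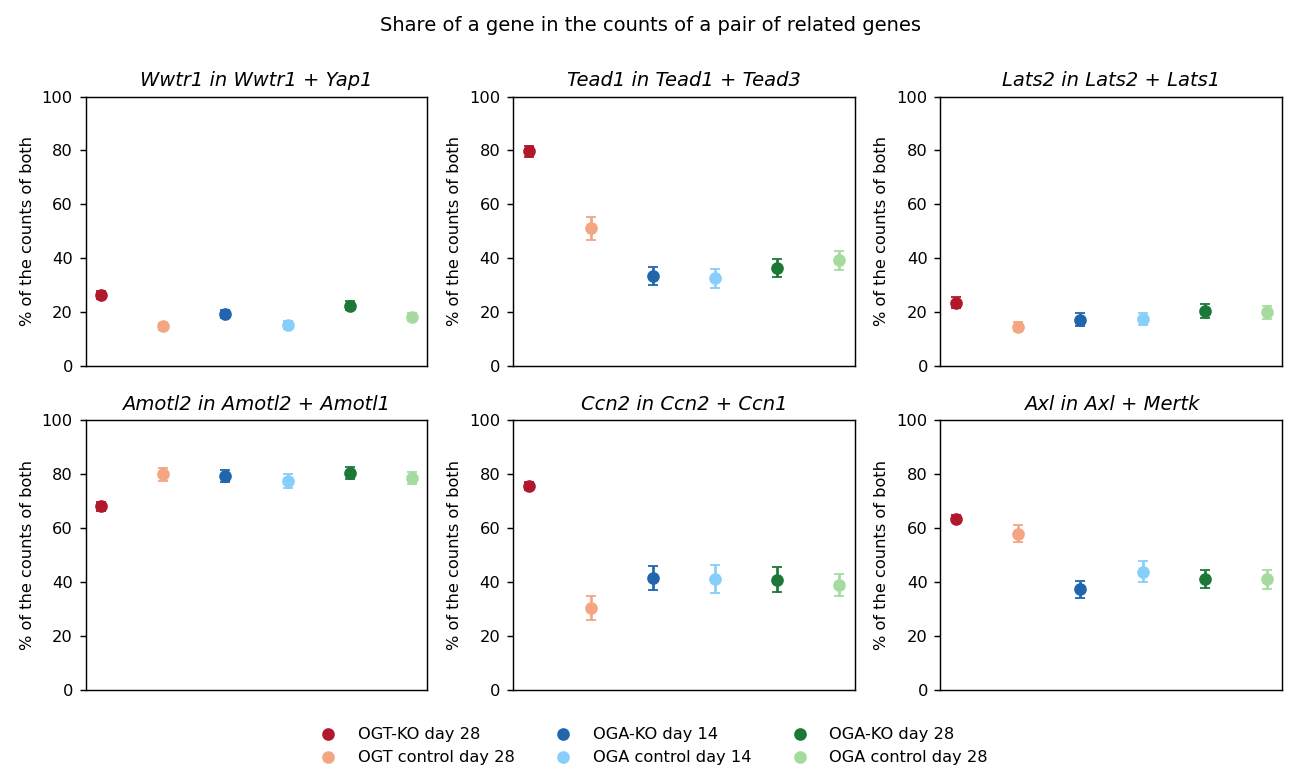
Share of the first gene in the summed counts of a pair of related genes, in percent, in each of the 6 libraries, with exact 95% Clopper-Pearson intervals. The interval of OGT-KO (red) lies clear of that of OGT control in the 6 pairs plotted, with Ccn2 at 75.8% of Ccn1 and Ccn2 against 30.2%.

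Axl, a receptor tyrosine kinase of the TAM family that binds the ligand Gas6, had 122 CPM in OGT-KO and 26.6 CPM in OGT control (3416 and 615 counts). In OGA-KO it had 12.6 CPM at 14 days and 14.3 CPM at 28 days, against 11.6 and 11.4 CPM in OGA control. OGT control was itself above all 4 OGA libraries. Axl rose in OGT-KO by edgeR (ratio 2.20, 2.07 to 2.33, adjusted p = 0.000209). The OGA-KO ratios were 0.12 (-0.11 to 0.35) and 0.33 (0.10 to 0.56). The ratio of OGT control to OGA control at 28 days was 1.22 (1.03 to 1.43), and Axl was the only one of the 8 genes at least 2-fold apart between these controls, where 10.4% of all genes were.

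Of the 5 listed TAM receptors and ligands, 4 had a row and all 4 rose in OGT-KO by edgeR, where 26.1% of all genes rose. Mertk, the TAM receptor of macrophages, had 70.6 CPM in OGT-KO and 19.3 CPM in OGT control (log2 1.86). The ligands were less different, Gas6 at 80.8 against 41.9 CPM (0.95) and Pros1 at 64.4 against 36.9 CPM (0.80). The OGA libraries had 59.3 to 78.2 CPM of Pros1, so its OGT-KO level lay within their range and its OGT control level below it. The share of Axl in the counts of Axl and Mertk was 63.4% in OGT-KO (62.1% to 64.7%) and 58.0% in OGT control (54.9% to 61.0%). In the OGA line it was 37.3% in OGA-KO and 43.7% in OGA control at 14 days, and 41.1% in OGA-KO and 40.9% in OGA control at 28 days.

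Per length of transcript, the order of the 8 genes differed between OGT-KO and its control. Levels were divided by the length of the joined exons in GENCODE M21, which is of another build than the counts. In OGT-KO, Ccn2 (29.1 CPM per kilobase) and Axl (24.3) stood highest, ahead of Ccn1 (13.2), Amotl2 (11.8) and Yap1 (9.94). In OGT control Yap1 stood highest at 11.4 CPM per kilobase, followed by Ccn1 (6.35), Amotl2 (6.22) and Axl (5.29), while Ccn2 was at 1.94. Tead1 (3.11 CPM per kilobase in OGT-KO and 0.90 in OGT control) and Lats2 (2.04 and 1.46 in the same order) were low in both libraries.

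The wider set of targets gave the same picture for OGT-KO. Of 22 YAP and TAZ target genes, a signature published from human tumours that includes 5 of the 8 genes, 19 had a row. In OGT-KO 13 of the 19 reached 2-fold higher and 0 reached 2-fold lower; their median log2 ratio was 1.58, and by edgeR 14 rose and 0 fell. Over all genes, 16.4% reached 2-fold higher and 11.7% 2-fold lower, and 26.1% rose and 26.6% fell by edgeR. Without the 5 genes already described, 10 of 14 were at least 2-fold higher, with a median of 1.68, and 10 rose. Myof, a membrane repair protein, had 94.7 CPM in OGT-KO and 4.46 CPM in OGT control (log2 4.38). Ccdc80, a matrix protein, was at 114 against 9.79 CPM (3.52), and the ligand Tgfb2 at 7.84 against 0.78 CPM (3.21). Nuak2, a kinase of the same signature, was at 11.7 CPM in OGT-KO and 15.6 CPM in OGT control and did not pass, nor did Gadd45a, F3, Lats2 and Dock5.

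**Figure D4:**
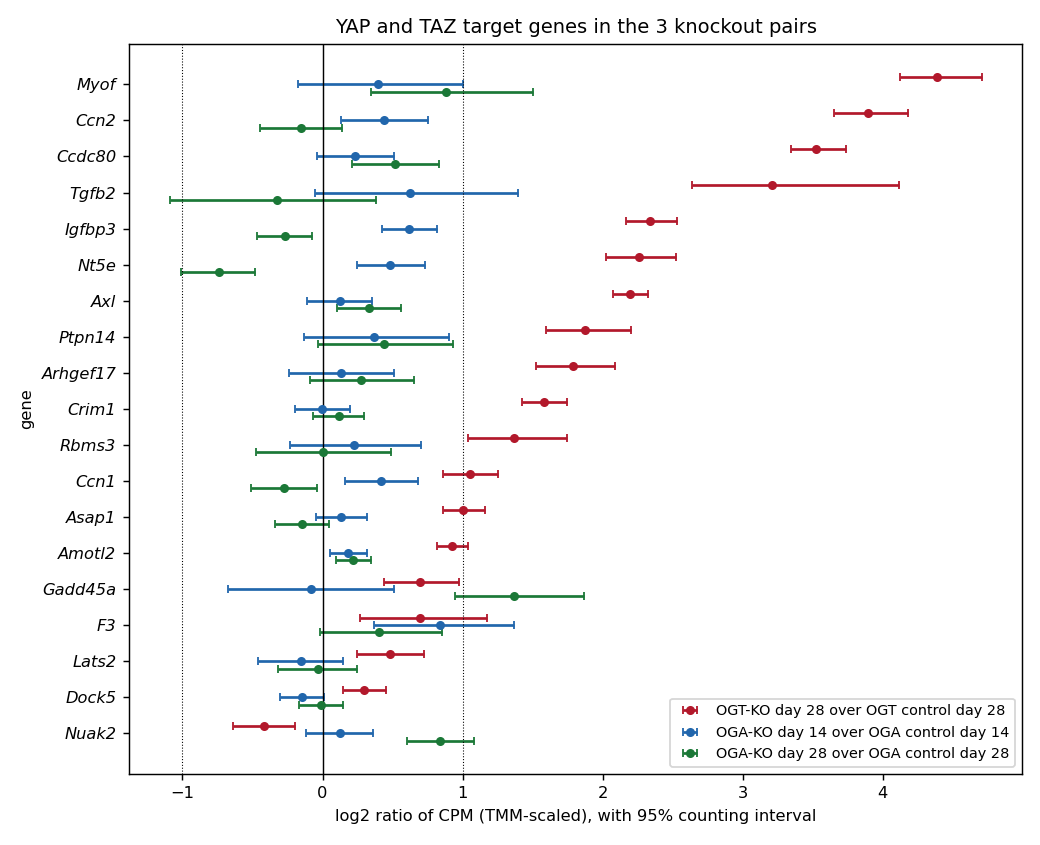
Log2 ratio of CPM (TMM-scaled) of the 19 YAP and TAZ target genes with a row, ordered by their ratio in OGT-KO, in the 3 knockout pairs with 95% counting intervals; dotted lines mark 2-fold. In OGT-KO 13 lie beyond 2-fold higher, and in the OGA-KO pairs 1 does, Gadd45a at 28 days.

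In the OGA-KO livers the pathway genes, like most genes, stayed within 2-fold of control at both times. Of the 8 genes 0 differed by at least 2-fold at either time, where 0.839% of all genes did at 14 days and 2.57% at 28 days. With so few of all genes past 2-fold, this count does not set the 8 apart. The median log2 ratio of the 8 was 0.15 at 14 days and 0.04 at 28 days, against 0.00 over all genes at each time. At 14 days the share of all genes at or above a member ran from 5.14% for Ccn2 to 80.4% for Lats2. It was 5.58% for Ccn1 and 6.08% for Wwtr1. By edgeR over both days 0 of the 8 passed, with 0.0333% of all genes called; at an unadjusted p under 0.05 there were 2 of the 8, Wwtr1 and Amotl2, and 1561 of all genes. The edgeR count for all genes was 4, and became 317 without the OGA-KO library of 14 days, 7 without that of 28 days and 0 without either OGA control, each fitted with no day term. The DESeq2 Wald test gave an adjusted p for 6 of the 8, not for Ccn1 and Lats2, and called 0 of these 6, against 0.505% of the 7130 genes with an adjusted p. Of the 19 target genes, 0 were 2-fold apart at 14 days and 1 at 28 days. That gene was Gadd45a, a stress-induced gene, at 5.74 CPM in OGA-KO and 2.18 CPM in OGA control (log2 1.37). At 28 days Nuak2 was at 0.84 and Nt5e, an ecto-enzyme that makes adenosine, at -0.74.

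The difference between the knockouts was tested in the same fit. By edgeR the OGT-KO effect exceeded the OGA-KO effect for 5 of the 8 genes and fell short of it for 0, where 21.4% of all genes rose and 22.7% fell in this contrast. The difference was 3.77 on the log2 scale for Ccn2 (adjusted p = 0.000774), 1.97 for Axl (0.000819) and 1.72 for Tead1 (0.00164). It was 0.72 for Amotl2 (0.0069) and 0.99 for Ccn1 (0.0489), and both of these were lost in the DESeq2 Wald test, which called 3 of the 8, with 17.4% of the 11793 genes with an adjusted p called. The Ccn1 difference passed in 5 of 9 alternatives. These include a fit without the low-count filter, which repeats the main fit because the filter removed no row. Wwtr1 (0.47, adjusted p = 0.058), Lats2 (0.58, 0.0679) and Yap1 (-0.19, 0.243) did not pass edgeR.

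Between the OGA controls, 0 of the 8 genes were at least 2-fold apart, against 0.927% of all genes. The range over the 3 controls was narrowest for Amotl2 (1.11-fold) and widest for Axl (2.34-fold). It was 1.51-fold for Ccn1 and 1.47-fold for Ccn2.

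Other genes known to share regulators with Ccn1 and Ccn2 were set beside them. A list of 13 genes held Srf, its coactivators Mrtfa and Mrtfb, and targets of these factors, and 12 had a row. In OGT-KO 8 of them, Mrtfa included, rose and 0 fell by edgeR, against 26.1% and 26.6% of all genes. The largest ratios were those of the smooth muscle actin Acta2, at 43.6 CPM in OGT-KO and 3.21 CPM in OGT control (log2 3.73), the actin cross-linker Flna (2.67), Tagln (1.96) and the tropomyosin Tpm1 (1.80). Srf itself was at 14.2 CPM in OGT-KO and 18.0 CPM in OGT control and did not pass. Of 13 immediate early genes, the class that is induced within minutes of a stimulus and to which Ccn1 belongs, 10 had a row, and 6 rose and 0 fell, against the same shares of all genes. They included Klf4 (3.24), Fos (1.93), Klf6 (1.79) and Junb (1.04), while Egr1 had 43.0 CPM in OGT-KO and 44.5 CPM in OGT control. Fos had 5.5 CPM in OGT-KO and 1.39 CPM in OGT control. In the OGA pairs it was lower in the knockout, at 1.63 CPM in OGA-KO and 6.00 CPM in OGA control at 14 days. At 28 days it had 1.38 and 5.23 CPM in the same order. The OGT-KO level of Fos was thus near those of the OGA controls, and its OGT control level near those of OGA-KO.

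In OGT-KO, the marker lists of stellate cells and fibroblasts, cholangiocytes and macrophages moved together with the pathway genes, and the endothelial list did not. The part of these cell types in these results was not tested. In bulk tissue, fewer cells of a type and less RNA per cell cannot be told apart. The edgeR counts of each list stand beside 26.1% of all genes that rose and 26.6% that fell in OGT-KO. The 10 stellate cell and fibroblast markers summed to 2386 CPM in OGT-KO and 286 CPM in OGT control (8.35-fold), and all 10 rose by edgeR, led by Col1a1 (log2 4.17) and Col1a2 (3.91). The cholangiocyte markers, 8 of 10 with a row, summed to 653 and 148 CPM in the same order (4.40-fold), and 7 rose, led by Krt7 (3.33) and Epcam (3.14). Most of these sums came from Spp1 (310 CPM in OGT-KO and 42.5 CPM in OGT control) and Tm4sf4 (219 and 43.15 CPM). The 10 Kupffer cell and macrophage markers summed to 1061 CPM in OGT-KO and 320 CPM in OGT control (3.32-fold), and 9 rose, led by Lgals3 (3.00) and Marco (2.44). The 10 endothelial markers summed to 264 and 247 CPM in the same order, and 2 rose and 4 fell, with Lyve1 at 1.89 and Kdr at -0.70.

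The 10 hepatocyte markers summed to 60850 CPM in OGT-KO and 90570 CPM in OGT control. By edgeR 8 fell, where 26.6% of all genes fell, led by Serpina1c (-2.00) and Ttr (-1.47). Serpina1c is one of several near-identical genes whose reads may be split. No marker of these 5 lists with a row was at 0 counts in any library. The ratio of Ccn2 (3.89) was larger than those of the 5 marker sums. Among single stellate cell markers, Col1a1 (4.17) stood above it and Col1a2 (3.91) beside it. The ratio of Axl (2.20) lay above those of the macrophage (1.73) and cholangiocyte (2.14) sums and below that of the stellate cell sum (3.06). Single markers of the macrophage and cholangiocyte lists reached 3.00 and 3.33, above Axl. The medians of these lists were 1.89 and 2.60 in the same order. In the OGT control library, where Axl was 2.33-fold above OGA control at 28 days, the macrophage markers summed to 320 CPM, against 163 CPM in OGA control (1.96-fold), and the stellate cell and fibroblast markers to 286 CPM, against 174 CPM in OGA control (1.64-fold). In the OGA pair at 14 days, where Ccn1, Ccn2 and Wwtr1 were 1.32-fold to 1.36-fold above control, the stellate cell and fibroblast markers summed to 256 CPM in OGA-KO and 183 CPM in OGA control, and 0 of the 10 passed edgeR over both days. In the OGA pair at 28 days, where Axl stood at 0.33, the macrophage markers summed to 201 CPM in OGA-KO and 163 CPM in OGA control. In other comparisons they moved apart. Between the OGA controls, Ccn1 and Ccn2 stood higher at 28 days, by 0.59 and 0.45. There the stellate cell and fibroblast markers summed to 174 CPM at 28 days and 183 CPM at 14 days. In OGT control Ccn2 was 0.68-fold its level in OGA control at 28 days, while the stellate cell and fibroblast sum was 1.64-fold. The part of these cells in those values was not tested.

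**Figure D5:**
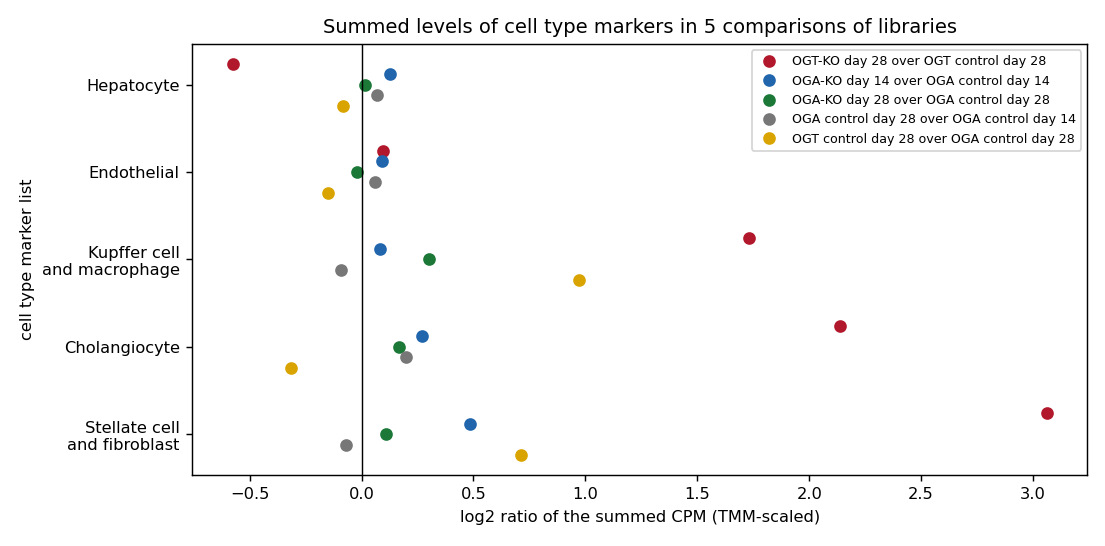
Log2 ratio of the summed CPM (TMM-scaled) of 5 lists of cell type markers in 5 comparisons of 2 libraries each; each point is 1 comparison, with no error bar since each library is single. In OGT-KO (red) the stellate cell and fibroblast sum is the farthest right, at 3.06, and the hepatocyte sum is left of 0.

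The genes with the most similar profiles were found by the Euclidean distance between centred log2 CPM profiles over the 6 libraries, which share the one high OGT-KO library. Those nearest to Ccn2 were Bex3 (distance 0.31) and Bmp8b (0.38), and those nearest to Axl were March1 (0.19) and Laptm5 (0.20). Ccn1 was nearest to Vegfc (0.25) and Tmcc3 (0.27), and Tead1 to Ier5 (0.17) and Trmt10a (0.19). Nearest to Amotl2 were Apbb2 (0.14) and Pxn (0.17), and to Wwtr1 Rnf39 (0.17) and Alpl (0.19). Lats2 was nearest to Tbc1d14 (0.10) and Ccng1 (0.14), and Yap1 to Hltf (0.07) and Slc20a2 (0.08). The distances were shortest for Yap1, which had the narrowest range over the libraries, and longest for Ccn2, which had the widest. The genes between them did not keep to that order, since Axl had a wider range than Ccn1 and shorter distances.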

How the data were processed

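Raw counts by gene, both lanes of a library added up in 1 column, were deposited as 1 table; the deposited normalised table held CPM by the authors, which equals the count over the column total in the OGA columns. In the OGT-KO column the divisor exceeded the total by 158367 counts (0.769%), so counts and not these CPM were used. The submitters' processing notes name STAR, Subread, edgeR and the build mm39; versions, strand setting and the filter behind the 12027 rows are not given in the sources used here. Symbols came from the reference's name table (12019 identifiers matched).

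From the counts, log2 ratios were computed with TMM effective library sizes and a prior count of 2 (edgeR 4.0.16, R 4.3.3), with intervals from the exact conditional binomial share (scipy 1.17.1). The edgeR filter on low counts kept all 12027 rows. A gene counted as 2-fold apart needed at least 1 CPM in the higher library. The fit was also run on simulated counts with the same spread in every library. That run could not check the spread assumed for the OGT pair. DESeq2 was 1.42.0.

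The 8 genes and all lists were chosen with earlier results of these data known. Genes named besides the 8 were listed genes with at least 1 CPM, always including the 4 largest OGT-KO ratios of each pathway list and the 2 largest of each marker list, Oga and Ogt, and for each of the 8 the 2 genes of nearest profile. Nothing says that same-group RNA came from more than 1 pool, so p-values measure only the spread among these libraries. The alternatives tried were library totals, DESeq2 size factors, a prior count of 10, minimums of 5 and 0 CPM, and DESeq2. Others were other model terms, leaving out OGA libraries, and no filter on low counts, which gave the main fit again.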

Additional observations from a re-analysis of the deposited data

Results flagged for a closer look

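The effects of the knockouts differed for 5 genes by the edgeR test of the difference itself, with the OGT-KO effect higher by 3.77 on the log2 scale for Ccn2, 1.97 for Axl, 1.72 for Tead1, 0.99 for Ccn1 and 0.72 for Amotl2. This test compares 1 OGT pair at 28 days with 2 OGA pairs, so line and knockout differ together. Ccn1 moved in opposite directions in the OGA-KO pairs, with a log2 ratio of 0.42 at 14 days and -0.27 at 28 days and counting intervals that both left out 0; the difference between the days was not tested.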

How the results depend on the processing

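The counts of the 8 genes called were within 1.5 times their reported values under all alternatives run, except that the DESeq2 Wald test called 3 rather than 5 for the difference between the knockouts. No paired analysis was possible because each group was 1 library, whose labels carry no replicate number. Leaving out each OGA library in turn, with no day term, gave 6 of the 8 genes called for OGT-KO each time, 0 for OGA-KO, and 4 to 5 for the difference, where Ccn1 was lost without the OGA control of 28 days (adjusted p = 0.0572). Its difference was also lost without the day term (0.0533), without the line term (0.0575) and in the DESeq2 Wald test (0.313). In OGT-KO the adjusted p over 9 alternatives ranged from 3.26e-18 to 0.00903 for Ccn2, 2.93e-10 to 0.0218 for Axl, 5.84e-05 to 0.00921 for Tead1 and 0.000358 to 0.0177 for Amotl2. It ranged from 0.00527 to 0.104 for Ccn1, 0.00107 to 0.107 for Wwtr1, 0.00767 to 0.629 for Lats2 and 0.129 to 0.914 for Yap1. All genes together gave 6332 edgeR calls for OGT-KO, against 2891 by the DESeq2 Wald test and 3035 without the line term; the cause was not tested. The 5301 calls for the difference became 2057 and 2767 in the same order. DESeq2 size factors and a prior count of 10 moved none of the 40 ratios of the 8 genes beyond their counting intervals, and library totals moved 12 of them, all upward and all in comparisons that include an OGT library. Target genes at least 2-fold higher in OGT-KO numbered 12 to 16 over the alternatives, against 13.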
